A study of Mus musculus with 6 samples.

Results

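The cytosolic ribosomal protein genes were followed in skeletal muscle of ovariectomized mice given 17β-estradiol (E2) or placebo. Members were the probe sets annotated with exactly 1 gene symbol of the form Rpl, Rps or Rplp followed by a digit, leaving out the Rps6k kinases, which gave 105 of the 45101 probe sets of the Affymetrix mouse genome array and 50 of the 18194 genes that have such a probe set. Of these, 48 probe sets of 26 genes belong to the large subunit and 55 probe sets of 22 genes to the small subunit, and the other 2 carry a matching symbol without being a ribosomal protein gene (Rps19bp1, a protein that binds Rps19, and the pseudogene Rps15a-ps6). A further 110 probe sets list a ribosomal protein together with other symbols and were not counted as members. Rpl3 and Rplp1 are represented only among those.

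The OVX + E2 group comprised 3 female C57BL/6 mice, ovariectomized at 4 months of age and implanted with a 0.18 mg E2 pellet made to last 60 days. The OVX group comprised 3 females of the same strain, ovariectomized at the same age and carrying a placebo pellet. Both groups lacked ovaries and no ovary-intact group was analysed here, so that the comparison is of hormone replacement against hormone loss. Each sample was hybridized to 1 array, no label says which animal it came from, and p-values measure the spread between these arrays.

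The sample labels give left ventricle as the tissue, whereas the series title and the study's methods give skeletal muscle and its soleus. By the brightest probe set of each gene, all 8 skeletal muscle markers were within the brightest 5% of probe sets on the array, and of the 4 heart markers none was, with Myh6, the cardiac myosin heavy chain, at the 66.1 percentile as the brightest of them. Some genes of fast muscle fibres differed widely between single arrays. Relative to the mean of all 6 arrays, 10 fast fibre genes averaged 0.33, -0.17 and -1.40 on the log2 scale on OVX + E2 replicates 1, 2 and 3. On OVX replicates 1, 2 and 3 they averaged 0.16, 0.26 and 0.81. The mean of -1.40 came mostly from Myh4, Actn3, Mybpc2 and Pvalb. On that array these had 7.78, 9.33, 8.90 and 9.61, against means over the 6 arrays of 12.32, 12.00, 11.32 and 12.26. The other fast fibre genes lay closer to their means there, such as Mylpf at 12.82 against 13.23 and Myh1 at 12.64 against 12.87. Some of the averages over the 10 genes are given again beside results on the same arrays.

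Ribosomal proteins build the small subunit, which decodes the mRNA, and the large subunit, which joins amino acids into protein. Their mRNAs are among the most abundant of a cell, begin with a C followed by a run of pyrimidines known as a TOP motif, and are translated under the control of the mTOR pathway and the RNA-binding protein Larp1. A few members have paralogs that replace them in certain tissues. Rpl3l takes the place of Rpl3 in striated muscle, Rps27l resembles Rps27 and is induced by p53 in other cells, and Rpl22l1 resembles Rpl22, an RNA-binding protein of the large subunit.

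The start sites of these genes are shown because the TOP motif sits at the first base of the mRNA and because the values of the 3 paralogs are described apart from the other members further on. Each line holds 60 bases of RefSeq sequence (GRCm38.p6), read 5′ to 3′ on the strand of the gene, with 40 bases before the annotated start and 20 from it on. Capitals mark the longest run of C and T that reaches into the 20 bases on either side of the start, or the first of them where a second run is as long, as in Rps27l and at the second start of Rpl3l.
Rpl3l, first start (chr17:24727786-24727845, plus strand): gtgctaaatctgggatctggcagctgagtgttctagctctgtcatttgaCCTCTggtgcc
Rpl3l, second start (chr17:24732645-24732704, plus strand): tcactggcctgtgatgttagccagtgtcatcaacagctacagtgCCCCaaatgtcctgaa
Rps27l (chr9:66946046-66946105, plus strand): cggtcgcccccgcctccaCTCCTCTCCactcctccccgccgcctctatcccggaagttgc
Rpl22l1 (chr3:28805468-28805527, plus strand): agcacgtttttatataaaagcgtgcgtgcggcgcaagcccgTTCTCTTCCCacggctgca
Rps27 (chr3:90213629-90213688, minus strand): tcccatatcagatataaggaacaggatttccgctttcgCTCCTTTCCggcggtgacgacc
Rps18 (chr17:33955646-33955705, minus strand): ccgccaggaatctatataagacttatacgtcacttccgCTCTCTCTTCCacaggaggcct
Rplp2 (chr7:141447611-141447670, plus strand): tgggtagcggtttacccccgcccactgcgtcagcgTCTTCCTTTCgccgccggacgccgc
Rpl38 (chr11:114668540-114668599, plus strand): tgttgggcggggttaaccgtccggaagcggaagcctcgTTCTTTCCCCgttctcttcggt

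In Rps27, Rps18, Rplp2 and Rpl38 the annotated first base is a C within a pyrimidine run, and in Rpl3l, Rps27l and Rpl22l1 it is not a C followed by 4 or more pyrimidines. That pattern was present at the annotated start of 8 of the 42 member genes with a promoter sequence (19.0%, against 3.01% of the 27025 genes in the promoter table) and of 0 of the 5 paralogs among them. A C followed by at least 6 pyrimidines, within 20 bases of the start on either side, occurred in 25 of the 42 (59.5%, against 24.0% of all promoters) and in 3 of the 5 paralogs, Rps27l, Rpl22l1 and Rpl39l. The annotated start can lie a few bases away from the one used in muscle, which these arrays do not measure.

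Within the 250 bases before to 50 after the start, searched on both strands, the core of the ETS factor GABP, CCGGAAG, occurred in 20 of the 42 member promoters (47.6%, against 9.93% of all promoters). The SP1 box GGGCGG occurred in 24 (57.1%, against 38.2%) and the YY1 core AAGATGG in 8 (19.0%, against 7.28%), while TATAAA occurred in 6 (14.3%, against 15.7%). The palindrome bound by estrogen receptors, GGTCA and TGACC with any 3 bases between them, occurred in 0 of the 42 member promoters and in 20 of all 27025. Its single arm GGTCA, which the palindrome contains, was found in 15 (35.7%, against 43.6%), those of Rpl3l and Rps27l among them. A match of letters is a description of the window and no evidence of binding.

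Ribosomal protein probe sets fell into a bright and a dim class. By the mean over the 6 arrays, in log2 units of the deposited signal, 71 probe sets of 37 genes were above 9 and 34 probe sets of 24 genes at or below it, and 68 of the 105 lay within the brightest 5% of the array. Rplp0, the base of the stalk that recruits elongation factors, was the brightest at 12.89, ahead of the small subunit protein Rps29 at 12.68 and the large subunit protein Rpl4, which lines the exit tunnel of the nascent chain, at 12.66. The dimmest were Rps15a-ps6 at 6.08, a probe set of Rps6, the substrate of the S6 kinases, at 6.10 and a probe set of Rps20 at 6.13. For 11 genes bright and dim probe sets stood side by side, and 13 genes had only dim ones. Brightness depends on the probes of a set as well as on the mRNA, so these levels do not rank the genes.

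**Figure D1:**
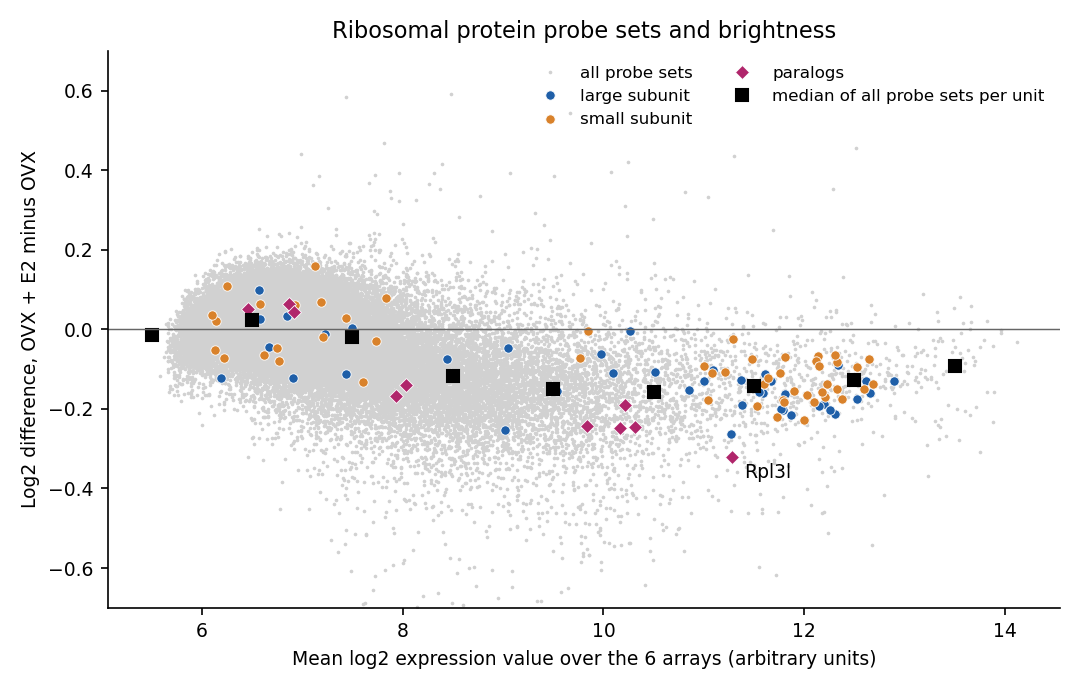
Difference OVX + E2 minus OVX (log2, vertical axis) against the mean over the 6 arrays (log2, horizontal axis) for all probe sets (grey), members of the large subunit, the small subunit and the paralogs; black squares give the median of all probe sets per log2 unit, and 40 probe sets beyond 0.7 in either direction are not drawn. Above a mean of 9 all 71 members lie below 0, around the median of the other probe sets of their brightness, and at lower means they scatter on both sides of 0.

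In the deposited values the ribosomal protein probe sets were mostly lower with E2 by a small amount, and no single one passed the threshold of the study's methods. Of the 105, 89 had a difference below 0 (background 52.3% of all probe sets), and the median difference, OVX + E2 minus OVX, was -0.11 on the log2 scale, against -0.0049 over all probe sets. In the limma fit 32 members were lower at an unadjusted p under 0.05 (30.5% of the members, against 9.43% of all probe sets) and 2 were higher (against 4.35%). This depended on how the arrays were scaled to each other. After quantile normalization the median of the members was 0.0037 and 2 were lower at that p (against 3.33% of all probe sets). After cyclic loess, which removes trends with brightness, the median was -0.0019 and 3 were lower (against 4.02% of all probe sets). At an unadjusted p of 0.001 the count was 0 (against 0.213% of all probe sets), and at an adjusted p of 0.05 it was 0 (against 0% of all probe sets), with 0.308 as the smallest adjusted p of a member. In whole muscle, fewer fibres of a kind and less mRNA per fibre cannot be told apart. The 3 arrays of OVX + E2 lay wholly below the 3 of OVX for 34 members (background 11.4%) and wholly above them for 2 (background 9.76%).

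Set beside probe sets of the same brightness, the members had values close to those of the rest. Among probe sets with a mean above 9, all 71 members had a difference below 0, and so had 92.8% of all such probe sets. The median difference of these members was -0.15, and that of all probe sets above 9 was -0.15 as well. In the limma fit 31 of the 71 were lower at an unadjusted p under 0.05 (43.7%, against 38.4%), for 30 the groups did not overlap (42.3%, against 38% of all probe sets above 9), and 39 lay below the median of their brightness class. In the 2 classes that hold most of the bright members, the 31 members with means between 11 and 12 had a median difference of -0.16, against -0.14 over all probe sets there, and the 26 with means between 12 and 13 had -0.14, against -0.13.

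In the large subunit, 34 probe sets above 9 had a median difference of -0.16, with 19 of them lower at an unadjusted p under 0.05 (55.9%), and in the small subunit 37 probe sets had a median of -0.14, with 12 lower (32.4%), against 38.4% of all probe sets above 9. Without the paralogs the medians were -0.15 for 32 large subunit probe sets and -0.13 for 34 small subunit probe sets. On each of the 6 arrays the mean deviations of these large and small subunit probe sets from their own averages lay within 0.03 of each other. The difference between the subunits was not tested.

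Among large subunit proteins, Rpl10a (chr17:28328471-28331033), a protein of the mobile L1 stalk through which spent tRNA leaves, had log2 values of 11.80, 11.70 and 11.76 in OVX + E2 muscle, against 12.07, 11.89 and 11.96 in OVX muscle. The difference was -0.22 ± 0.057 (SE, n = 3 each), an unadjusted p of 0.00631 and an adjusted p of 0.308 by limma. The groups did not overlap, and OVX replicate 1 was the highest array. Rpl7a, another protein of the large subunit, had 12.50, 12.44 and 12.37 in OVX + E2 muscle, against 12.65, 12.57 and 12.62 in OVX muscle. Its difference was -0.18 ± 0.047 (limma unadjusted p = 0.00711). Rpl4 had 12.64, 12.56 and 12.53 in OVX + E2 muscle, against 12.78, 12.72 and 12.72 in OVX muscle, a difference of -0.16 ± 0.045 (limma unadjusted p = 0.00861). In both genes every OVX + E2 array was below every OVX array, by small steps. Rpl19 (chr11:98022003-98030493), which forms a bridge between the subunits, had 11.73, 11.65 and 11.62 in OVX + E2 muscle, against 11.92, 11.92 and 11.77 in OVX muscle, a difference of -0.20 ± 0.056 (limma unadjusted p = 0.00886). The adjusted p of each of these genes was 0.308. The median of all probe sets of their brightness was -0.14 between means of 11 and 12 and -0.13 between means of 12 and 13.

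The stalk proteins bind the elongation factors that drive each step of translation. Rplp2 (chr7:141447651-141451359), 1 of the acidic proteins of the stalk, had log2 values of 12.23, 12.13 and 12.11 in OVX + E2 muscle, against 12.42, 12.39 and 12.26 in OVX muscle, a difference of -0.20 ± 0.057 (limma unadjusted p = 0.00893, adjusted p = 0.308). Rplp0, the base of the stalk and a common reference gene in quantitative PCR, had 12.89, 12.80 and 12.80 in OVX + E2 muscle, against 13.10, 12.90 and 12.88 in OVX muscle. These groups overlapped, with OVX + E2 replicate 1 level with the lower OVX arrays, and the difference was -0.13 ± 0.065 (limma unadjusted p = 0.0835). It lay at the median of its brightness class.

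In the small subunit Rps15 (chr10:80292431-80294114), a protein of the subunit's head that touches the tRNAs, had the widest range over the arrays apart from Rps27l. One of its probe sets had log2 values of 12.01, 11.94 and 11.69 in OVX + E2 muscle, against 12.20, 12.06 and 12.06 in OVX muscle, a difference of -0.23 ± 0.085 (limma unadjusted p = 0.0315, adjusted p = 0.339). OVX + E2 replicate 3 was the lowest array by a clear step. The second probe set differed by -0.19 ± 0.069 (limma unadjusted p = 0.0269). Rps29, the brightest of the small subunit, is a small zinc-binding protein measured by 3 probe sets with differences of -0.14, -0.15 and -0.18. Rps4x, encoded on the X chromosome, had 12.31, 12.23 and 12.28 in OVX + E2 muscle, against 12.43, 12.31 and 12.28 in OVX muscle, with overlapping groups and a difference of -0.06 ± 0.051 (limma unadjusted p = 0.247).

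Rpl3l (chr17:24727826-24736143), the striated-muscle paralog of Rpl3, had the largest difference of the 105 members. Its log2 values were 11.16, 11.24 and 10.96 in OVX + E2 muscle, against 11.40, 11.36 and 11.55 in OVX muscle. The groups did not overlap, the lowest array was OVX + E2 replicate 3 and the highest OVX replicate 3. The difference was -0.32 ± 0.083 (SE, n = 3 each), or 0.801 times the OVX level, with an unadjusted p of 0.00612 and an adjusted p of 0.308 by limma, and the exact two-sided permutation test over 20 labelings gave p = 0.1, the smallest it can give. The probe set was at the 98.6 percentile of brightness, where the median difference of all probe sets was -0.14. Without both arrays numbered 3 the difference was -0.18 (limma unadjusted p = 0.0141). In that setting the median was -0.12 over all probe sets above 9. It was -0.15 over the 32 large subunit probe sets above 9 other than paralogs. After cyclic loess normalization Rpl3l had -0.18 (limma unadjusted p = 0.0453), where the median over all probe sets above 9 was -0.0037. After quantile normalization Rpl3l had -0.15 (limma unadjusted p = 0.0777).

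The single arrays show where Rpl3l parted from the rest of the large subunit. Its deviation minus that of the other bright large subunit probe sets was -0.11, 0.04 and -0.19 on OVX + E2 replicates 1, 2 and 3, against -0.02, 0.02 and 0.27 on OVX replicates 1, 2 and 3. Only OVX replicate 3 and OVX + E2 replicates 1 and 3 were thus more than 0.1 away from the others. The fast fibre genes had their highest mean (0.81) on OVX replicate 3 and their lowest (-1.40) on OVX + E2 replicate 3. On OVX + E2 replicate 1, where Rpl3l was below the other large subunit probe sets, they averaged 0.33. The part of the fast fibre genes in the value of Rpl3l was not tested. Because Rpl3 had no probe set of its own, the paralog could not be set against its counterpart.

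Rps27l (chromosome 9) was measured by 3 probe sets with the same pattern. The first had log2 values of 10.29, 10.17 and 10.10 in OVX + E2 muscle, against 10.38, 10.29 and 10.64 in OVX muscle, so that OVX replicate 3 was far above the rest and the groups overlapped. The differences of the 3 were -0.25, -0.25 and -0.24 (limma unadjusted p = 0.034, 0.0168 and 0.0565), and without both arrays numbered 3 they were -0.10, -0.13 and -0.09. After cyclic loess they were -0.10, -0.10 and -0.09 (limma unadjusted p = 0.271, 0.185 and 0.341). In the deposited values the median of all probe sets of their brightness was -0.16 for the first 2 and -0.15 for the third. Without both arrays numbered 3 the median of all probe sets above 9 was -0.12. Rps27, the counterpart of Rps27l, had a single probe set with a mean of 7.21 and a difference of -0.02 ± 0.040. Rpl22l1 (chromosome 3) had 10.13, 10.15 and 10.09 in OVX + E2 muscle, against 10.28, 10.16 and 10.50 in OVX muscle. The groups did not overlap, though OVX + E2 replicate 2 and OVX replicate 2 were nearly level, and the difference was -0.19 ± 0.084 (limma unadjusted p = 0.0568). The median of all probe sets of that brightness was -0.16, and after cyclic loess Rpl22l1 had -0.04 (limma unadjusted p = 0.586). Its counterpart Rpl22 had 3 probe sets at -0.14, -0.11 and -0.25. The last of these, the dimmest, had 8.97, 8.98 and 8.73 in OVX + E2 muscle, against 9.08, 9.13 and 9.23 in OVX muscle (limma unadjusted p = 0.0136).

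The remaining paralogs were dim. Rpl39l, a paralog of Rpl39 best known from testis, had a mean of 6.46 and a difference of 0.05 ± 0.042, and Rpl39 itself a mean of 7.43 and a difference of -0.11 ± 0.049. Rps4l had 0.04 ± 0.069. Rpl7l1, a nucleolar relative of Rpl7, had 3 probe sets at -0.17, -0.14 and 0.06, and the first of these ranged widely, with 7.89, 8.07 and 7.60 in OVX + E2 muscle, against 8.13, 7.92 and 8.01 in OVX muscle. None of these 4 genes had a probe set at an unadjusted p under 0.05.

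**Figure D2:**
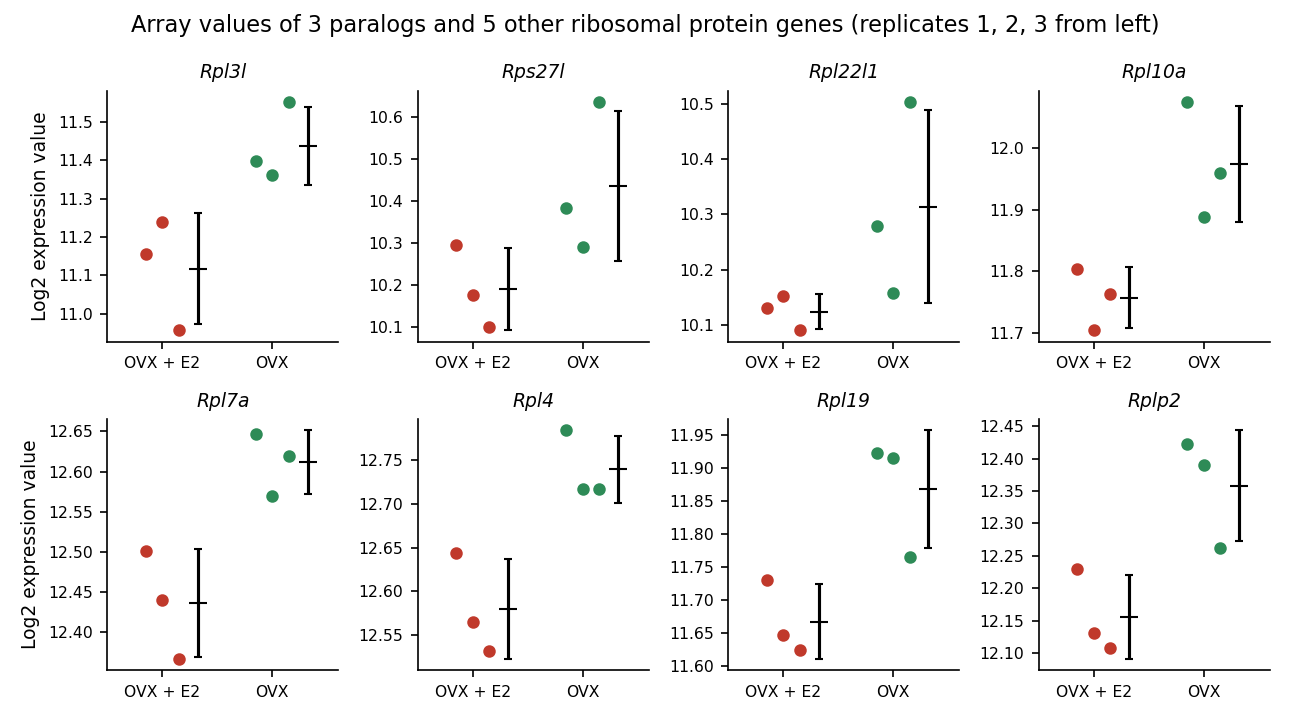
Log2 values on each array (points, replicates 1, 2 and 3 from left to right within a group; bars, mean ± SD) of Rpl3l, the first probe set of Rps27l, Rpl22l1, Rpl10a, Rpl7a, Rpl4, Rpl19 and Rplp2, OVX + E2 left of OVX, each panel on its own vertical scale. Rpl3l runs between 10.96 and 11.24 in OVX + E2 muscle and between 11.36 and 11.55 in OVX muscle, and for the paralogs OVX replicate 3 is the highest point.

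On single arrays, the core ribosomal proteins were mostly highest on OVX replicate 1 and the bright paralogs on OVX replicate 3. Relative to their own means, the 66 bright probe sets other than paralogs averaged -0.004, -0.09 and -0.11 on OVX + E2 replicates 1, 2 and 3, against 0.15, 0.06 and -0.004 on OVX replicates 1, 2 and 3, and 61 of the 66 (92.4%) were highest on OVX replicate 1, where 27% of all probe sets above 9 were highest. OVX replicate 3 thus lay level with OVX + E2 replicate 1 in these genes. The 5 bright probe sets of Rpl3l, Rps27l and Rpl22l1 averaged -0.06, -0.10 and -0.21 on OVX + E2 replicates 1, 2 and 3, against 0.09, -0.02 and 0.30 on OVX replicates 1, 2 and 3. All 5 were highest on OVX replicate 3 (background 42.7%) and lowest on OVX + E2 replicate 3 (background 49.3%). These 5 probe sets come from 3 genes and were singled out by their symbols, and the difference between them and the core members was not tested.

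**Figure D3:**
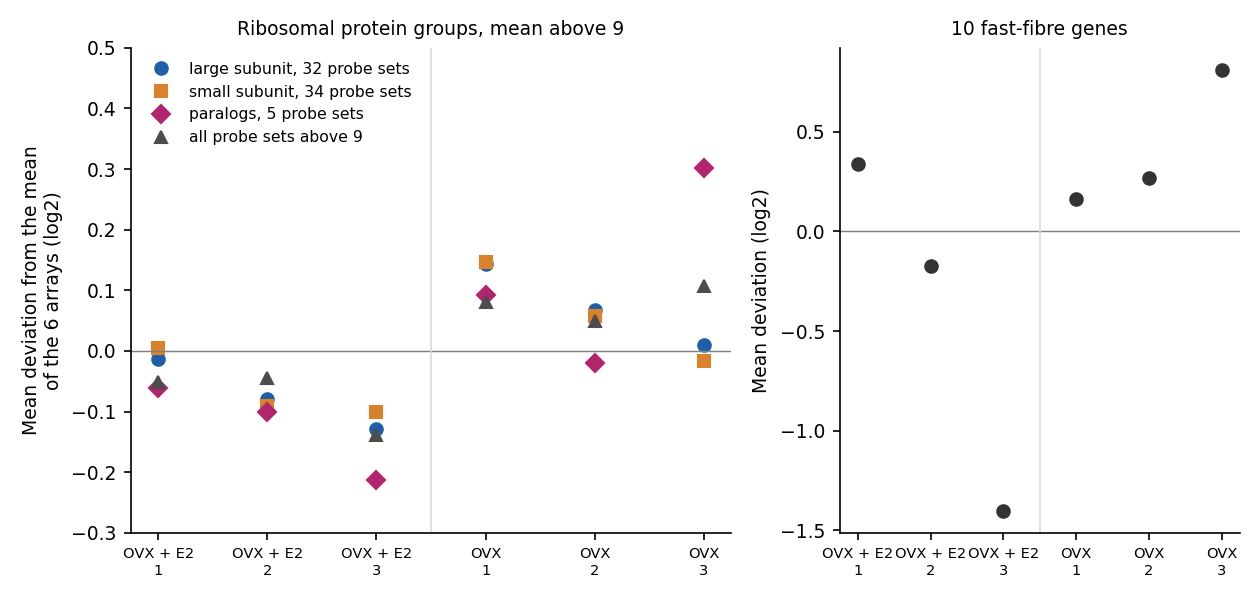
Mean deviation from the 6-array mean (log2, vertical axis) on each array, OVX + E2 replicates left of OVX replicates, for the large and small subunit members above 9, the paralogs and all probe sets above 9, with 10 fast fibre genes in a second panel on a wider scale. Both subunits are highest on OVX replicate 1, at 0.14 for the large and 0.15 for the small subunit, whereas the paralogs are highest on OVX replicate 3, at 0.30.

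Single arrays carried much of the count. Leaving out OVX replicate 1, 13 members, all of them bright, were lower at an unadjusted p under 0.05 by limma (against 7.83% of all probe sets and 29% of those above 9), 68 of the 71 bright members were still below 0 (against 87.7% of all probe sets above 9) and their median was -0.10. Leaving out OVX + E2 replicate 3 gave 16 lower members, again all among the 71 bright ones (against 5.7% of all probe sets and 24.8% of those above 9). Leaving out both arrays numbered 3, where the fast fibre genes were most extreme, gave 36 (against 7.54%), 35 of them among the bright members (against 31.4% of all probe sets above 9).

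The dim probe sets scattered around 0. Of the 34 at or below a mean of 9, 18 were below 0 (against 48.4% of all probe sets at or below 9) and 16 above it, with a median difference of -0.02. In the limma fit 1 was lower (against 6.68%) and 2 were higher (against 4.74%) at an unadjusted p under 0.05. The lower one was a probe set of Rpl41, the smallest ribosomal protein, at -0.12 ± 0.041. Of the 2 higher, Rps16, of the small subunit, had 6.26, 6.34 and 6.32 in OVX + E2 muscle, against 6.18, 6.21 and 6.19 in OVX muscle, with a difference of 0.11 ± 0.039 (limma unadjusted p = 0.0257, adjusted p = 0.33) at the 11.6 percentile of brightness. The other was a probe set of Rps24, a gene mutated in Diamond-Blackfan anemia, with a difference of 0.16 ± 0.064 (limma unadjusted p = 0.0425) and overlapping groups. The 4 bright probe sets of Rps24 had differences of -0.09, -0.07, -0.11 and -0.09. Rpl27a, Rps10, Rps25 and Rps9 followed with dim probe sets at 0.10, 0.07, 0.08 and 0.06, and none of these passed an unadjusted p of 0.05.

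Of 23 genes with several member probe sets, 13 had the same sign in all of them. Sizes varied with the kind of probe set. Among bright members, the 36 whose probes can also match other genes (suffix x_at) had a median of -0.13. Of these, 11 were lower at an unadjusted p under 0.05 by limma (30.6%, against 38.4% of all probe sets above 9). The 26 designed for the transcripts of a single gene (suffix a_at) had a median of -0.16 with 13 lower (50%). The difference between the kinds of probe set was not tested. For Rpl35, a protein at the exit of the tunnel, the a_at probe set differed by -0.26 and the 4 bright x_at probe sets by between -0.19 and -0.10. Rps9, at the entry of the mRNA channel, had -0.18 in one bright probe set and -0.004 in an x_at probe set, and Rpl7 had -0.16, -0.13 and -0.005.

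**Figure D4:**
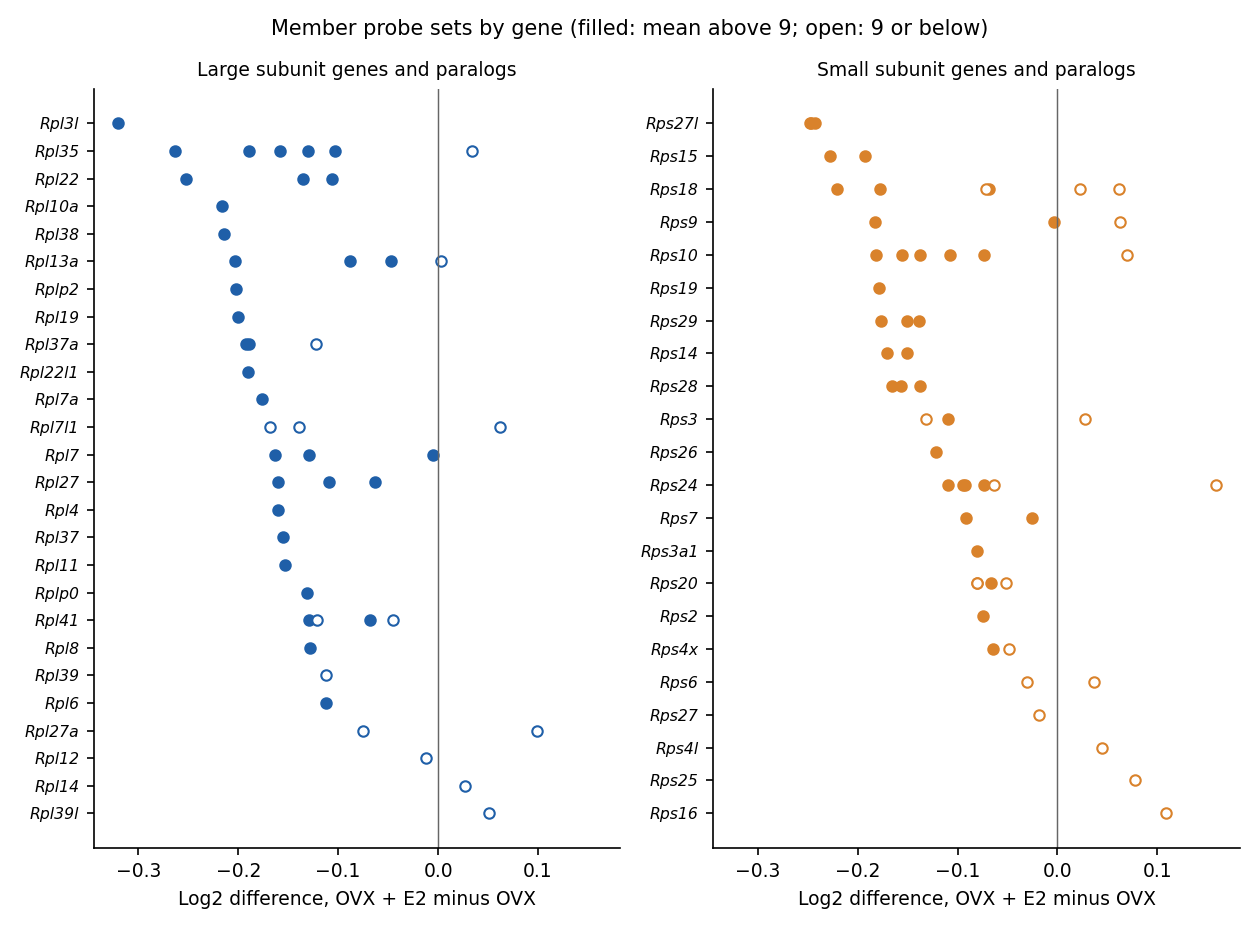
Difference OVX + E2 minus OVX (log2, horizontal axis) of each member probe set by gene (rows), with the large subunit and its paralogs in one panel, the small subunit and its paralogs in the other, and filled points for means above 9 and open points for dimmer probe sets. Filled points all lie left of 0, with Rpl3l farthest at -0.32, and open points lie on both sides.

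The shift of the bright members depended on how the arrays were scaled to each other. The deposited values kept a relation between brightness and difference, and the SD of all log2 values was 1.16, 1.16 and 1.14 on the OVX + E2 arrays, against 1.21, 1.20 and 1.22 on the OVX arrays. After cyclic loess the 71 bright members were split into 37 below 0 (against 51.3% of all probe sets above 9) and 34 above it, with a median of -0.0087, 1 lower and 1 higher at an unadjusted p under 0.05 (against 3.54% and 3.39% of all probe sets above 9). After quantile normalization 35 were below 0 (against 44.7%) and 36 above it, with a median of 0.0037. The loess medians were -0.013 for the large and 0.0013 for the small subunit. Rpl3l, at -0.18, was the 1 lower bright member after loess, and a probe set of Rpl7, at 0.14, the 1 higher. Cyclic loess assumes that probe sets of a given brightness do not change on average. Quantile normalization assumes that all arrays share 1 distribution of values. The ribosomal protein mRNAs may have been lower in muscle with E2, or bright probe sets in general narrower in range on the OVX + E2 arrays. These possibilities cannot be told apart from these values.

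**Figure D5:**
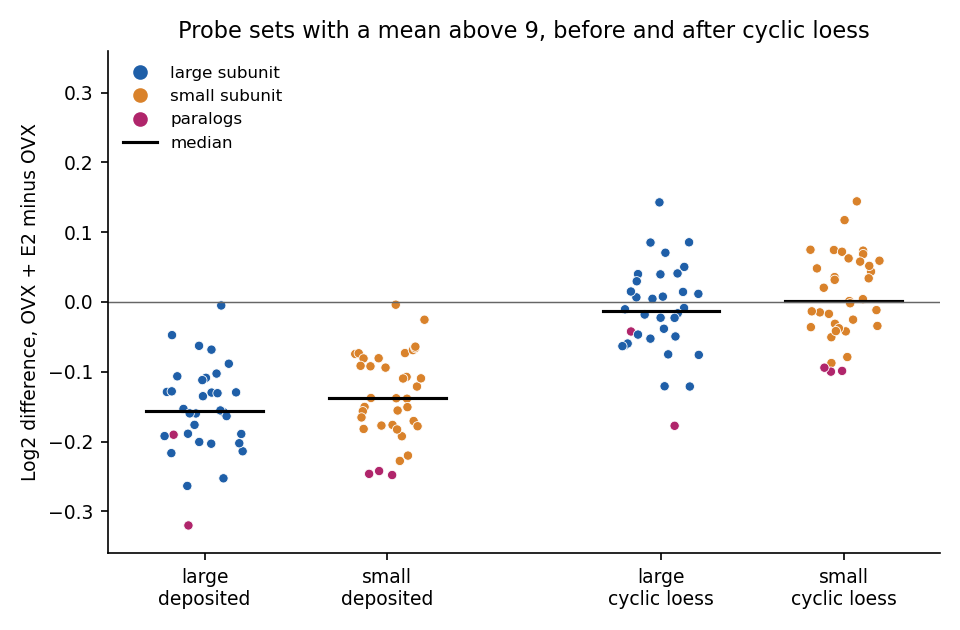
Difference OVX + E2 minus OVX (log2, vertical axis) of the member probe sets above a mean of 9 in the deposited values and after cyclic loess, for the large and the small subunit, with paralogs in their own colour and black lines for medians. The medians are -0.16 and -0.14 for the large and small subunit in the deposited values, and -0.013 and 0.0013 after cyclic loess.

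Genes that work with the ribosomal proteins gave similar values, taking 1 probe set per gene. On that basis 9819 of all 18194 genes were below 0, with a median difference of -0.01. At an unadjusted p under 0.05 by limma 13.0% of all genes were lower and 6.01% higher. Rpsa and Fau encode small subunit proteins that the symbol rule misses. Rpsa had a difference of -0.12 ± 0.096 and Fau of -0.20 ± 0.081 (limma unadjusted p = 0.24 and 0.0408). The 8 ribosomal protein chaperones, which escort single proteins to the assembling subunits, were all below 0 with a median of -0.11, and 2 were lower at that p. Bccip, a relative of the yeast chaperone of Rpl23, had 9.98, 9.98 and 9.96 in OVX + E2 muscle, against 10.17, 10.11 and 10.18 in OVX muscle, a difference of -0.18 (limma adjusted p = 0.308), and Grwd1, a relative of the yeast chaperone of Rpl3, had -0.10. After cyclic loess the median of the chaperones was -0.05.

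Of 69 measured ribosome biogenesis genes, 61 were below 0 with a median of -0.07, 11 were lower and 2 higher at an unadjusted p under 0.05, and the median after cyclic loess was -0.02. The smallest p among the lower were those of Eif6, which keeps the subunits apart until the large one is mature, at -0.16, Wdr12, of the complex that processes large subunit rRNA, at -0.19, and Utp4, of the small subunit processome, at -0.13. Wdr18 at 0.13 and Mdn1, the ATPase that remodels the precursor of the large subunit, at 0.12 were higher, and Polr1a, the catalytic subunit of RNA polymerase I, had 0.18 (limma unadjusted p = 0.147). Of 18 measured genes that control TOP mRNAs, 16 were below 0 with a median of -0.16, 7 were lower and 1 higher. Larp4b at -0.18, Tia1 at -0.30 and Larp1, which binds the TOP motif when mTOR is inactive, at -0.24 had the smallest p, while Tsc1 had 0.10. Tsc2, the partner of Tsc1 in the complex that restrains mTOR, had -0.31 (limma unadjusted p = 0.0232). The probe set used for Tsc1 was dim, with a mean of 7.18, where its brightest had 8.65, and that of Tsc2 had a mean of 9.27. After cyclic loess Tsc1 had 0.10 and Tsc2 -0.17 (limma unadjusted p = 0.0355 and 0.101). The median of the 18 genes after cyclic loess was -0.04.

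For comparison, 69 of 76 mitochondrial ribosomal protein genes were below 0, against 9819 of all 18194 genes, with a median of -0.10. Their median brightness was 9.15, and 92.8% of all probe sets above 9 were below 0. At an unadjusted p under 0.05 by limma 25 of the 76 were lower and 2 higher (Mrps15 and Mrps26), against 13.0% and 6.01% of all genes. After cyclic loess 27 were below 0, the median was 0.022, and 0 were lower and 1 higher at an unadjusted p under 0.05 by limma. Of 46 translation factors 40 were below 0, with a median of -0.15 and 18 lower. Among them 1 gene, the initiation factor Eif2d, passed an unadjusted p of 0.001 by limma, as did 0.213% of all probe sets. At an adjusted p under 0.05 the count over all probe sets was 0. After cyclic loess the median of the translation factors was -0.026, with 3 lower and 1 higher. Among markers of other cells in muscle, all 5 of fibroblasts were below 0, with Dcn and Pdgfra lower at an unadjusted p under 0.05. After cyclic loess all 5 fibroblast markers were below 0, with a median of -0.16, and 0 were lower at that p. Relative to the 6-array mean they averaged -0.22, 0.05 and -0.28 on OVX + E2 replicates 1, 2 and 3, against 0.12, 0.42 and -0.10 on OVX replicates 1, 2 and 3. None of the fat cell, macrophage, endothelium, Schwann cell, red cell or satellite cell markers passed that p, and the part of other cell types in the ribosomal protein values was not tested.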

How the data were processed

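Per the study's methods, the authors background-corrected the array scans, normalized them by variance stabilization and combined the probes of a set by median polish, using R 2.14.2. The deposited values are log2 signals without a physical unit, and the scale compresses differences of dim probe sets. Depth has no meaning for arrays, and their number limits the precision. Scanner files and detection calls were not used here. Samples were grouped by the treatment in the labels. Probe sets were named by the platform annotation (34958 with 1 symbol, 932 with several, 9211 with none), and all 105 member symbols were found in the RefSeq gene table of GRCm38.p6, which gave the positions.

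All 45101 probe sets, the 64 control probe sets included, were fitted in R 4.3.3 with limma 3.58.1 (lmFit, then eBayes) for the difference OVX + E2 minus OVX. Tests were two-sided, had no covariate, and were adjusted over all probe sets by Benjamini-Hochberg. The threshold was the methods' unadjusted p of 0.001, and 0.05 served for description. The fit was tested on simulated data. Gene lists used the probe set with the largest interquartile range per gene. The planned comparison of Rpl3l with Rpl3 was not run, because Rpl3 had no probe set of 1 symbol.

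Named genes are the paralogs with their counterparts, the stalk proteins, the 6 smallest p in each direction, the 4 widest ranges, the 3 brightest and 3 dimmest, probe sets opposing the others of their gene, the listed chaperones and proteins outside the symbol rule, and up to 3 per direction of the biogenesis and TOP lists. Rpl35, Rpl41, Rps18, Rpl38, Eif2d, Tsc2, Mrps15, Mrps26, Dcn, Pdgfra, Myh4, Actn3, Mybpc2, Pvalb, Mylpf and Myh1 were chosen after their values were seen. So was the mean of 9 that splits bright from dim probe sets. Members and lists were chosen with earlier results of these data known.

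Alternatives were quantile normalization, cyclic loess (3 iterations), median centring, array weights, an intensity trend, a brightness filter, removal of control probe sets, 1 probe set per gene, the replicate number as a block, and leaving out arrays.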

Additional observations from a re-analysis of the deposited data

How the results depend on the processing

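No member passed an unadjusted p of 0.001 or an adjusted p of 0.05 by limma under any of the 16 alternatives. The 32 members lower at an unadjusted p under 0.05 were 2 after quantile normalization (against 3.33% of all probe sets) and 3 after cyclic loess (against 4.02%). They were 20 with an intensity trend of the variance, 46 after median centring and 38 with array weights. With 1 probe set per gene they were 16 of 50 (against 13.0% of all genes). When 1 array was left out they were between 13 and 48. The lowest count was without OVX replicate 1 (against 7.83% of all probe sets) and the highest without OVX replicate 3. The share of all probe sets at that p was not computed for the intensity trend, median centring or array weights. Nor was it computed for the brightness filter or the fit without OVX replicate 3. The 2 higher members were 5 after quantile normalization (against 4.46% of all probe sets) and 3 after cyclic loess (against 3.57%). They were 3 with the intensity trend, 1 after median centring and 0 among probe sets brighter than the median. Without both arrays numbered 3 they were 0 (against 2.1% of all probe sets), and between 0 and 2 when 1 array was left out. The median difference of all members was 0.0037 after quantile normalization and -0.0019 after cyclic loess, that of the large subunit -0.0030 and -0.013, and that of the small subunit 0.017 and 0.014. The cause was not tested. Leaving out 1 array gave medians between -0.14 and -0.08. The difference of Rpl3l lay between -0.38 and -0.15 with limma unadjusted p between 0.004 and 0.0777. No label says whether equally numbered arrays of the 2 groups belong together. Their deviations from the group means correlated at -0.13, -0.20 and -0.34 over all probe sets. Deviations within a group of 3 depend on each other, so these correlations cannot decide whether the arrays were paired. With the replicate block 43 members were lower and 1 higher at an unadjusted p under 0.05 by limma, and Rpl3l had an unadjusted p of 0.026. The share of all probe sets at an unadjusted p under 0.05 was not computed with the block. With 3 arrays a group, no permutation test can go below 0.1.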

Other observations

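The 110 probe sets that list a ribosomal protein together with other symbols were not counted as members. Of these, 91 had a difference below 0 (against 52.3% of all probe sets), with a median of -0.11. At an unadjusted p under 0.05 by limma 30 were lower (against 9.43%) and 4 higher (against 4.35%), while 0 passed 0.001 (against 0.213%). Of the 82 with a mean above 9, 79 were below 0, against 92.8% of all such probe sets, 28 were lower at an unadjusted p under 0.05, against 38.4%, the median was -0.13, and after cyclic loess their median was 0.02. Which gene gave the signal of such a probe set cannot be told apart.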
